A study of Mus musculus with 8 samples.

Results

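Radial glia marker genes were followed across the nuclei of the developing mouse cortex with and without the long noncoding RNA gene Pantr2. The set held the 10 genes Pax6, Vim, Fabp7, Slc1a3, Nes, Hopx, Tnc, Ptprz1, Ednrb and Sox9, taken by symbol from a table of 14166 genes, and all 10 were found. Single-nucleus RNA sequencing counted unique molecular identifiers (UMIs), each standing for 1 captured transcript, in nuclei of flash-frozen dorsal telencephalon. There were 4 wildtype samples and 4 Pantr2 knockout samples (Pantr2-/- in the protocol), all C57BL/6J embryos at E15.5. No other allele or treatment is named for either group. The labels do not say what was deleted from Pantr2 or whether a sample pooled embryos, so p-values measure the spread between these samples. Pantr2 itself was not analysed here, so genotypes are taken from the labels.

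Radial glia are the stem cells that line the ventricle of the embryonic brain and send a long process to its surface. In the cortex they divide at the ventricle, give rise to neurons directly or through intermediate progenitors, and later switch to making glia. Their markers fall into intermediate filaments of the process (Vim, Nes), proteins of lipid and glutamate handling (Fabp7, Slc1a3), transcriptional regulators (Pax6, Sox9, Hopx), and matrix and cell surface proteins (Tnc, Ptprz1, Ednrb).

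The samples held 7280 to 10921 nuclei and between 20446686 and 34083771 UMIs each. The median nucleus of a sample held 2570 to 2905 UMIs, and mitochondrial genes took 1.66% to 2.32% of the UMIs. Any pair of samples shared between 8 and 30 cell barcodes. The authors' deposited tables place each nucleus in 1 of 7 numbered clusters and give it a cell cycle angle. Cluster 4 held 10948 of the 67319 nuclei. Of the 24 other apical progenitor genes found in the table, 21 were highest in cluster 4, as were all 8 G2/M genes and all 7 S phase genes found. So were 7 of 9 astrocyte and oligodendrocyte precursor genes, 5 of 7 interneuron and ganglionic eminence genes, 3 of 4 mural genes and 2 of 4 choroid plexus and hem genes. Cluster 5 held the highest level of 6 of 7 intermediate progenitor genes, cluster 1 that of all 5 upper-layer neuron genes, and clusters 2 and 3 together that of 7 of 8 deep-layer neuron genes.

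Cluster 4 made up 20.2%, 13.7%, 9.69% and 12.9% of the nuclei in wildtype replicates 1 to 4. In the knockout replicates it made up 25.5%, 19.6%, 15.2% and 13.1%. The ranges of the groups overlapped, and within each replicate number the knockout share was the higher, in 4 of 4. The same held for the share of UMIs. The labels do not say what the replicate numbers stand for. A level summed over all nuclei moves with this share, whereas a level within cluster 4 does not.

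The start regions of 4 members are shown because Tnc, Ptprz1, Slc1a3 and Ednrb are the members that were lower in cluster 4 of the knockout samples with the smallest adjusted p-values, as given below. Each sequence is the 250 bases before the gene's start on the gene's strand, from RefSeq on GRCm38.p6. Tnc is read from the minus strand of chr4:64047016-64047265, Ptprz1 from the plus strand of chr6:22875252-22875501, Slc1a3 from the minus strand of chr15:8710808-8711057 and Ednrb from the minus strand of chr14:103843702-103843951. Capitals mark any match, on either strand, to 1 of 6 short motifs. These were the promoter elements CCAAT and, for the TATA box, TATAAA; the letters TTTGAA as in sites of TCF and LEF factors; the letters TGGGAA as in sites of the Notch effector RBPJ; the letters ACAAAG as in sites of Sox factors; and the E-box CAGCTG.
Tnc: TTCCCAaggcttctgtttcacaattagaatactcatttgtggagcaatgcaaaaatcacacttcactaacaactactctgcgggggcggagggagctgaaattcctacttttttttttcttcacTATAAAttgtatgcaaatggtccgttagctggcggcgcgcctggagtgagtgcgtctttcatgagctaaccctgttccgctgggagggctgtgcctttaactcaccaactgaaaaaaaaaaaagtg
Ptprz1: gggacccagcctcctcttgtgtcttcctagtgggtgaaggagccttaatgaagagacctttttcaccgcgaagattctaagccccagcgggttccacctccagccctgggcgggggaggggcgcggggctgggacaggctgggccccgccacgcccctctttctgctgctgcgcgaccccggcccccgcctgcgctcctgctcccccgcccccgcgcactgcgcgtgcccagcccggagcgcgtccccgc
Slc1a3: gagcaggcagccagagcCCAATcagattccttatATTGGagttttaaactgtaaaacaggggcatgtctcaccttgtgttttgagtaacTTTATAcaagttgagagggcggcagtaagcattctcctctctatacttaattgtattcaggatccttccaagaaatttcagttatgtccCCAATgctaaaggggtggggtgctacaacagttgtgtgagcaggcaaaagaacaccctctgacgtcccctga
Ednrb: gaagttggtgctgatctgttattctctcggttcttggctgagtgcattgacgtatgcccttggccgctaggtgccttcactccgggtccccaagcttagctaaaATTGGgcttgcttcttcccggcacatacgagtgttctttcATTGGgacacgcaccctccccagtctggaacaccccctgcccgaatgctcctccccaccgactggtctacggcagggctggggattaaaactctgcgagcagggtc

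Tnc held TATAAA at -126 and TGGGAA, on the other strand, at -250, counted from the gene's start. Slc1a3 held CCAAT on the gene's strand at -233 and -72 and on the other strand at -216, and TATAAA on the other strand at -161. Ednrb held CCAAT on the other strand at -146 and -106. No match lay in the Ptprz1 window. Of 27025 promoter windows of the same length, 34.5% held CCAAT, 13.0% TATAAA and 21.5% TGGGAA, and no motif was shared by all 4 members. Their GC content ranged from 44.8% for Tnc and Slc1a3 through 56.8% for Ednrb to 71.6% for Ptprz1, against a median of 52% over all promoters. RefSeq windows were matched for 9 of the 10 members, all but Sox9.

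Levels by cluster were first described in wildtype. They are in CPM, a gene's UMIs scaled to a fixed total of the sample's UMIs in that cluster, given as mean ± SD over 4 samples, and carry no test because the clusters were made from the same nuclei. Cluster 4 had the highest wildtype mean for all 10 genes. The range of its samples lay above that of the next cluster for 9 of them, and Fabp7 was the exception.

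Ednrb, the endothelin receptor type B, and Tnc, the matrix glycoprotein tenascin C, were the members most restricted to cluster 4. Ednrb stood at 137 ± 10.5 CPM there and at 4.43 ± 1.18 CPM in cluster 5, its next highest cluster. Tnc stood at 156 ± 13.2 CPM against 7.90 ± 3.16 CPM in cluster 5. The level in cluster 4 over the median of the other clusters was 49.8 ± 11.7-fold for Ednrb and 38.6 ± 13.4-fold for Tnc. Between 83.6% and 91.5% of a sample's Ednrb UMIs and between 81.3% and 86.6% of its Tnc UMIs came from cluster 4. Below cluster 4, neighbouring clusters overlapped for both genes.

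Single nuclei showed the same restriction. After every nucleus was thinned to 1400 UMIs, 17.6% of wildtype cluster 4 nuclei held a Tnc UMI, against 0.568% in cluster 3, a deep-layer neuron cluster taken as the background level. The unthinned shares were 31.4% and 1.31%, at median depths of 2652 to 3113 UMIs in cluster 4 and 2926 to 3211 UMIs in cluster 3. For Ednrb the thinned shares were 16.0% and 0.479%, and the unthinned shares 28.0% and 0.988%. The shares in cluster 3 are read as background, not as expression.

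Slc1a3, the astroglial glutamate transporter GLAST, and Pax6, a transcription factor of cortical progenitors, peaked in cluster 4 above a middle tier of clusters. Slc1a3 reached 843 ± 55.4 CPM in cluster 4. Its next levels were 192 ± 31.7 CPM in cluster 6, 159 ± 32.4 CPM in cluster 2 and 120 ± 21.1 CPM in cluster 5, each overlapping its neighbour in this order. All 3 lay above the 53.2 ± 10.2 CPM of cluster 1, without overlap between clusters 5 and 1. Pax6 stood at 62.1 ± 4.06 CPM in cluster 4 and 24.8 ± 6.23 CPM in cluster 5, and at 5.32 to 7.92 CPM in the other 5 clusters. Those 3 tiers of Pax6 did not overlap, while the 5 low clusters overlapped their neighbours.

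Sox9, a transcription factor of neural stem cells and glia, Hopx, a homeodomain-only protein enriched in outer radial glia, and Nes, the intermediate filament nestin, peaked less sharply. Sox9 stood at 61.8 ± 11.3 CPM in cluster 4 and 25.8 ± 6.05 CPM in cluster 5, with a lowest mean of 13.3 CPM in cluster 6. Hopx went from 33.0 ± 8.25 CPM in cluster 4 to 12.9 ± 3.40 CPM in cluster 5 and 7.07 CPM in cluster 6. Nes went from 51.2 ± 3.37 CPM to 21.1 ± 2.23 CPM in cluster 5 and 14 CPM in cluster 3. For these 3 genes every cluster below cluster 4 overlapped its neighbour in the order.

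Vim, the filament protein vimentin, and Fabp7, the brain fatty acid binding protein, were detected widely over the neuron clusters. How much of their level there is background was not tested. Vim stood at 347 ± 42.1 CPM in cluster 4, 178 ± 41.6 CPM in cluster 5 and 122 ± 23.7 CPM in cluster 3, its lowest. Fabp7 stood at 721 ± 143 CPM in cluster 4 and 561 ± 120 CPM in cluster 5, with overlapping ranges, and its lowest mean was 383 CPM in cluster 7. In all 7 clusters wildtype replicate 1 had the highest Fabp7 level of the 4 wildtype samples. The level in cluster 4 over the median of the others was 1.75 ± 0.129-fold for Fabp7 and 2.41 ± 0.128-fold for Vim.

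Ptprz1, a receptor-type protein tyrosine phosphatase of radial glia and oligodendrocyte precursors, had an order of its own. After 1600 ± 71.7 CPM in cluster 4 came 1281 ± 145 CPM in cluster 2 and 1021 ± 137 CPM in cluster 1, which overlapped each other. Clusters 3 and 7 followed at 724 ± 60.8 and 706 ± 58.9 CPM, then cluster 6 at 392 ± 18.4 CPM. Its lowest level, 206 ± 50.0 CPM, was in cluster 5, which came next after cluster 4 for 8 of the other 9 members.

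**Figure D1:**
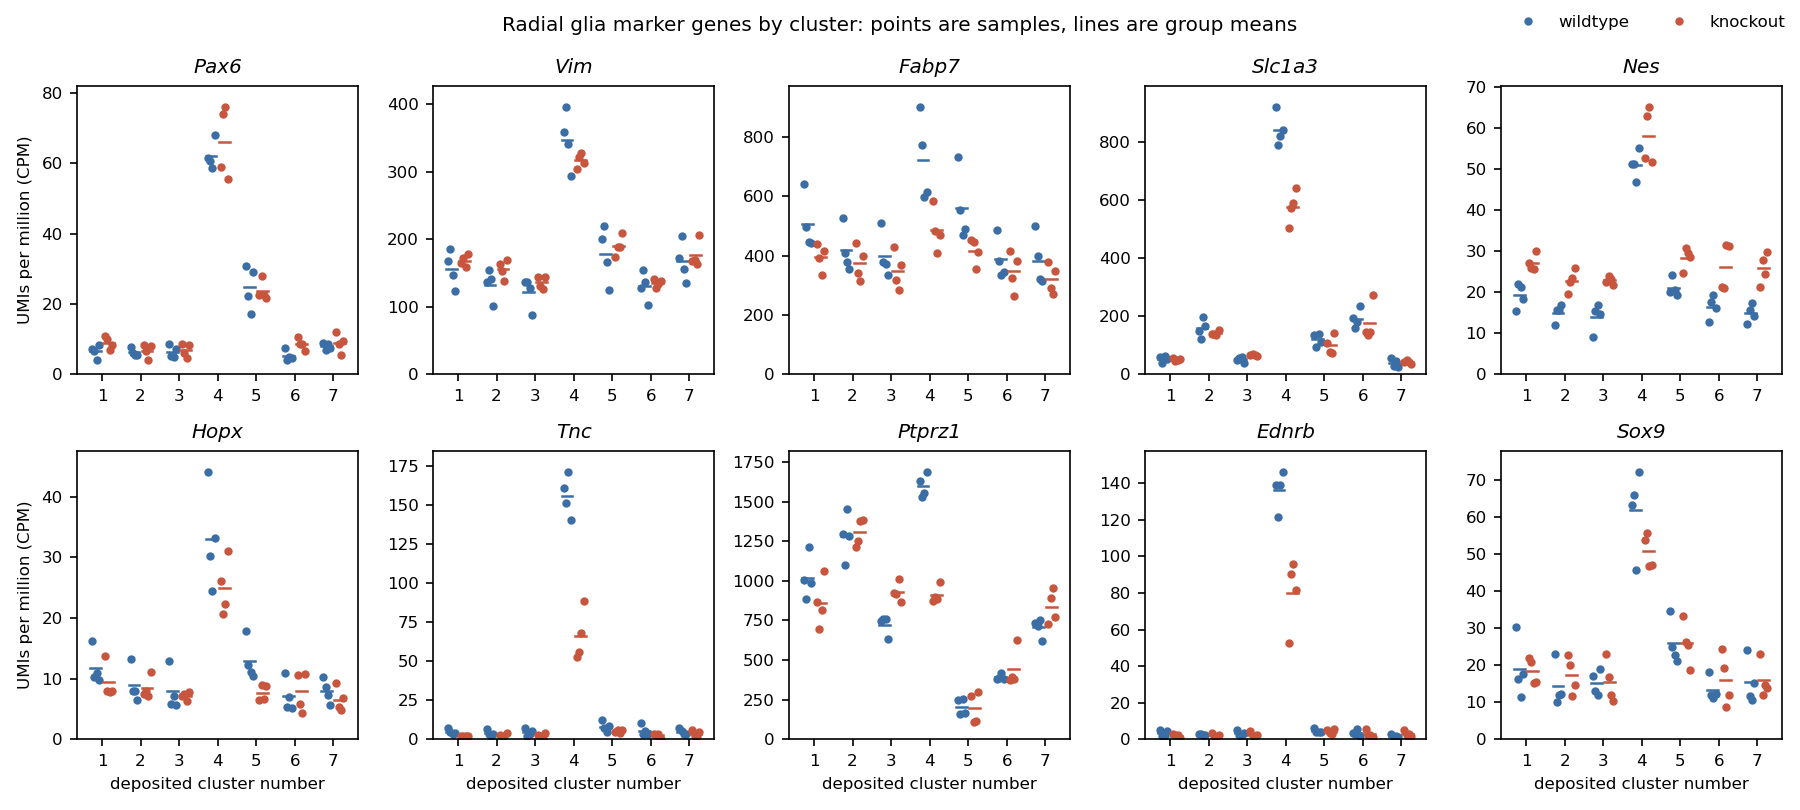
Level of each of the 10 genes (vertical axis, CPM, from 0) in the 7 deposited clusters (horizontal axis), with 1 point per sample, wildtype in blue and knockout in red, and lines at group means. Ednrb and Tnc are near 0 outside cluster 4, and Ptprz1 is highest in cluster 4 in 4 of 4 wildtype samples and in 0 of 4 knockout samples.

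The other 9 members were highest in cluster 4 in 8 of 8 samples, whatever the genotype. Ptprz1 was highest there in 4 of 4 wildtype samples and in 0 of 4 knockout samples. Over the 56 values of 8 samples in 7 clusters, the log2(CPM + 1) of Ednrb had a Pearson correlation of 0.95 with the mean of the other 9 members, and for Ptprz1 it was 0.16. The other 8 genes lay between 0.68 for Fabp7 and 0.92 for Tnc. These values describe the pattern, since clusters of a sample share its library.

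The genes with the pattern most like the mean of the members were taken from 12137 genes with at least 10 UMIs per sample in cluster 4. They were Pdpn (Pearson correlation 0.973), Incenp (0.965), Ccdc80 (0.965), Aurka (0.965), Top2a (0.964), Cenpf (0.962), Sparc (0.962) and Plce1 (0.962), each over the same 56 values. Incenp, Aurka, Top2a and Cenpf encode proteins of chromosome segregation and mitosis, Sparc a matrix protein and Pdpn the membrane glycoprotein podoplanin.

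Knockout was then compared with wildtype within cluster 4, which asks whether these genes differ per UMI of the same deposited cluster. UMIs were summed per sample and tested with edgeR, and values below are CPM on library totals scaled by the trimmed mean of M-values (TMM). A gene is called when its p, adjusted over all genes tested in the fit, is under 0.05. In all, 5 of the 10 members were called, Tnc, Ptprz1, Ednrb, Slc1a3 and Fabp7, all lower in the knockout samples. Among all genes tested in cluster 4, 4.29% were called, 3.12% lower and 1.17% higher. The median log2 fold change of the members was -0.47, against 0.01 over all genes tested. The members were chosen with earlier results of these data known. The counts and medians set beside all genes, here and below, are therefore descriptions and no test of the set.

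Tnc showed the largest decrease of the 10. Its level was 159, 149, 174 and 139 CPM in wildtype replicates 1 to 4, against 53.3, 56.2, 68.1 and 90.8 CPM in the knockout replicates. The groups did not overlap, and the knockout mean was 56.7% lower. The log2 fold change was -1.23 ± 0.15 (SE) (edgeR adjusted p 4.75e-04).

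Ptprz1 had the smallest adjusted p. Wildtype samples stood at 1606, 1510, 1574 and 1670 CPM and knockout samples at 884, 903, 888 and 1014 CPM. The lowest wildtype sample lay above the highest knockout sample. The log2 fold change of Ptprz1 was -0.79 ± 0.07 (edgeR adjusted p 4.44e-05).

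Ednrb stood at 137, 120, 141 and 145 CPM in wildtype and at 53.7, 90.8, 96.3 and 83.3 CPM in knockout. Replicate 1 was the lowest knockout sample, and the groups did not overlap. The log2 fold change was -0.75 ± 0.15 (edgeR adjusted p 0.0136).

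Slc1a3 gave 907, 780, 832 and 833 CPM in wildtype and 512, 578, 593 and 655 CPM in knockout, without overlap. For this transporter the log2 fold change was -0.52 ± 0.08 (edgeR adjusted p 0.00311). Fabp7 gave 887, 762, 607 and 608 CPM in wildtype and 595, 487, 410 and 479 CPM in knockout, and the groups came close without overlapping. The change was -0.54 ± 0.14 on the log2 scale (edgeR adjusted p 0.0458). That call was lost without wildtype replicate 1 (0.144) or 2 (0.131) and without knockout replicate 2 (0.102), 3 (0.120) or 4 (0.0954), all edgeR adjusted p-values. The Xist covariate ended it as well (-0.55, edgeR adjusted p 0.0508).

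The filaments and transcriptional regulators were not called in cluster 4. Nes stood at 50.8 ± 2.91 CPM in wildtype and 58.9 ± 6.51 CPM in knockout, a log2 fold change of 0.21 ± 0.09. Vim stood at 345 ± 40.9 and 321 ± 9.23 CPM, and Pax6 at 61.8 ± 3.73 and 66.8 ± 10.0 CPM. Sox9 went from 61.3 ± 10.6 to 51.4 ± 4.52 CPM and Hopx from 32.7 ± 7.88 to 25.3 ± 4.89 CPM. Their edgeR adjusted p-values lay between 0.267 for Hopx and 0.663 for Pax6, and the groups overlapped for each of the 5.

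**Figure D2:**
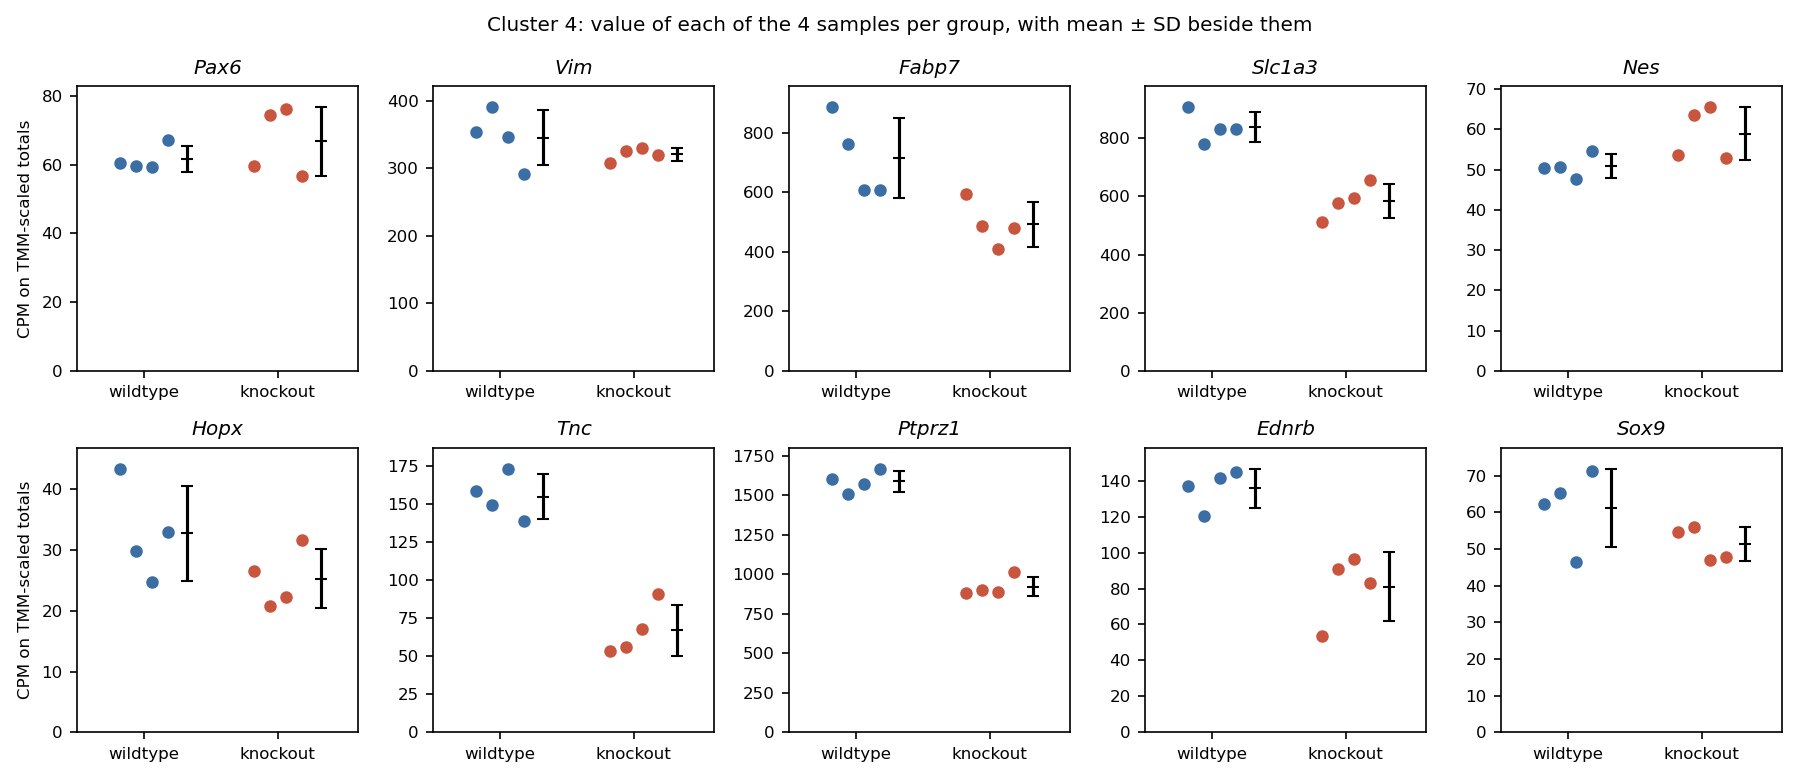
Level of each gene in cluster 4 (vertical axis, CPM on TMM-scaled totals, from 0) in the 4 wildtype samples (blue) and the 4 knockout samples (red), with the mean ± SD of each group as a black bar. The groups do not overlap for Fabp7, Slc1a3, Tnc, Ptprz1 and Ednrb and overlap for the other 5 genes. The share of all genes without overlap is not given here, so this describes the samples only.

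Counts of nuclei followed the sums. Thinned to 1400 UMIs, 16.0% to 19.1% of cluster 4 nuclei held a Tnc UMI in the wildtype samples and 6.72% to 10.6% in the knockout samples. A wildtype nucleus of cluster 4 held a UMI of 3.00 ± 0.104 of the 10 members and a knockout nucleus of 2.46 ± 0.0624. Nuclei with at least 5 members made up 11.5% to 13.9% of cluster 4 in wildtype samples and 4.75% to 6.60% in knockout samples. Those shares are descriptions over the members and carry no test.

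Other apical progenitor genes moved in both directions in cluster 4. Of 24 tested, 2 rose and 3 fell, and their median log2 fold change was -0.07. Dach1, a nuclear cofactor, rose by a log2 fold change of 0.62 ± 0.09 (edgeR adjusted p 0.00178) and the LIM homeobox gene Lhx2 by 0.40 ± 0.08 (0.0164). Mfge8, a secreted phagocytosis ligand, changed by -0.86 ± 0.17 (0.0136), Pdpn by -0.62 ± 0.10 (0.00412) and the cell cycle regulator Rgcc by -0.59 ± 0.10 (0.00424). The summed level of the list overlapped between groups, at 6443 to 6995 CPM in wildtype and 6050 to 7287 CPM in knockout.

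Markers of other cell types moved in cluster 4 as well. On the list of 10 astrocyte and oligodendrocyte precursor genes, 9 were in the table and 6 were tested, of which 5 fell and none rose. Their summed level was 148 to 160 CPM in wildtype and 78.1 to 103 CPM in knockout, without overlap. The 5 were Egfr (log2 fold change -2.0), Aldh1l1 (-1.96), Sparcl1 (-1.77), Olig1 (-2.89) and Olig2 (-2.09), with edgeR adjusted p-values from 4.44e-05 to 0.00339. Aqp4, at 2.16 CPM in wildtype, Pdgfra, at 1.73 CPM, and Sox10, at 0.305 CPM, were near 0. Bcan, the sixth gene tested, changed by 0.43 on the log2 scale, which did not pass (edgeR adjusted p 0.127).

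The 4 mural genes summed to 27.9 to 30.2 CPM in wildtype and 9.25 to 14.4 CPM in knockout, and of 2 tested Pdgfrb fell, by a log2 fold change of -1.57. Endothelial genes summed to 12.8 to 15.9 against 7.33 to 11.3 CPM, with 0 of 2 called. Microglial genes, at 7.49 to 10.1 against 2.97 to 4.6 CPM, were too low to test. Interneuron and ganglionic eminence genes overlapped, at 47.7 to 94.0 against 19.9 to 62.1 CPM, with 0 of 4 called. Nkx2-1 of that list was sparse, at 36 UMIs and 0.576 to 5.67 CPM in wildtype and 0 UMIs in the knockout samples. Choroid plexus and hem genes lay at 9.22 to 128 against 2.88 to 11.1 CPM and Cajal-Retzius genes at 15 to 28.3 against 17.3 to 56.3 CPM, also overlapping.

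Lists of the neuronal lineage and the cell cycle overlapped between groups in their sums. Intermediate progenitor genes had 0 of 7 called, upper-layer neuron genes 0 of 5 and G2/M genes 0 of 8. Foxp2 and Fezf2 of 8 deep-layer neuron genes rose, as did 1 of 6 pan-neuronal genes, Neurod6, and 1 of 7 S phase genes, Hells. Deep-layer neuron genes summed to 1778 to 2114 CPM in wildtype and 1962 to 2782 CPM in knockout. The part of these lists in the lower levels of the members was not tested.

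Cluster 4 was compared again without the nuclei holding such UMIs, a choice made after seeing the data. Nuclei holding a UMI of any of the glial list made up 27.5% to 30.0% of cluster 4 in wildtype and 19.7% to 25.2% in knockout. Of those nuclei, 31.4% to 47.1% in wildtype and 69.5% to 76.7% in knockout held UMIs of Bcan and of no other gene on the list. The filter thus took different nuclei from the groups, and it was set by genes that themselves differed with genotype, so the values below do not compare matched nuclei. Without the nuclei it took, 3 of 10 members were called, where 2.55% of all genes were. Tnc had a log2 fold change of -1.07 (edgeR adjusted p 0.00281), Ptprz1 one of -0.59 (9.29e-04) and Slc1a3 one of -0.44 (0.0267). Ednrb, at -0.54, and Fabp7, at -0.42, were no longer called, with edgeR adjusted p-values of 0.0884 and 0.154. Leaving out nuclei with an interneuron marker UMI as well, 35.5% to 43.3% of wildtype and 26.4% to 28.9% of knockout nuclei in all, again called Tnc, Ptprz1 and Slc1a3, at -1.05, -0.58 and -0.45, where 2.34% of all genes were called.

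**Figure D3:**
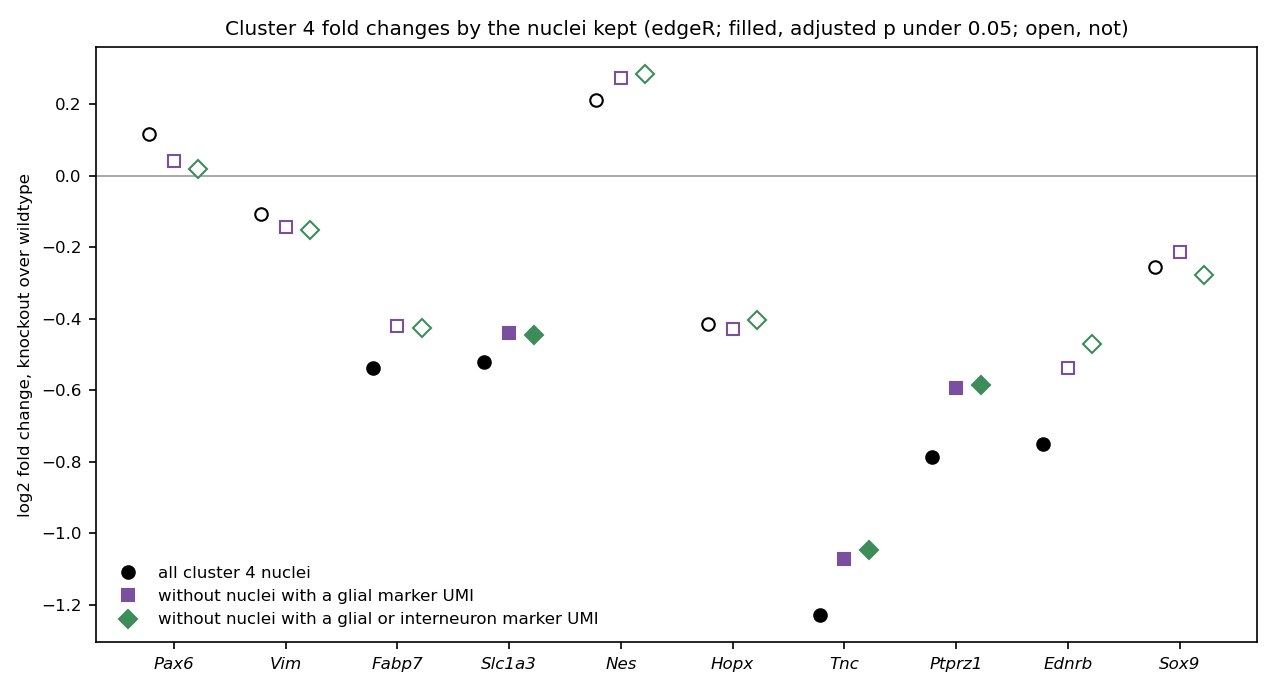
Log2 fold change of each gene in cluster 4 (vertical axis, knockout over wildtype) with all nuclei (black circles), without nuclei holding a glial marker UMI (purple squares) and without nuclei holding a glial or interneuron marker UMI (green diamonds). Filled symbols have an edgeR adjusted p under 0.05: Tnc, Ptprz1 and Slc1a3 stay filled, and Ednrb and Fabp7 do not.

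The position along the cell cycle was examined next. The deposited angle was cut into 3 windows: S from 0.5π to 1π, G2/M from there to 1.75π, and G1/G0 for the rest. The angle was computed from the same nuclei's counts, so levels along it carry no test. In wildtype, Pax6 climbed over the windows, at 42.7 ± 7.36 CPM in G1/G0, 58.5 ± 6.26 CPM in S and 73.6 ± 2.40 CPM in G2/M. Its log2 ratio of G2/M to G1/G0 was 0.80 ± 0.25 in wildtype and 0.45 ± 0.36 in knockout, above 0 in 8 of 8 samples.

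Vim and Slc1a3 were higher in G2/M than in S in 8 of 8 samples. In wildtype their log2 ratios of G2/M to S were 0.35 ± 0.09 for Vim and 0.31 ± 0.11 for Slc1a3. Tnc was flat in wildtype, at 154 ± 10.4, 157 ± 6.91 and 155 ± 31.1 CPM in G1/G0, S and G2/M. Nes lay between 49.9 and 52.5 CPM over the windows, within the SD of the samples. Fabp7 was lower in G2/M than in G1/G0 in 4 of 4 wildtype samples, by a mean log2 ratio of -0.12 ± 0.13 that turned to 0.14 when all window boundaries were moved up by 0.125π. The moved G2/M window held only 58 to 236 nuclei per sample, where the unmoved one held 285 to 676. Values with moved boundaries, here and below, therefore describe a smaller and different set of G2/M nuclei. Hopx, Sox9, Ednrb and Ptprz1 had their highest wildtype mean in G1/G0, but none was higher there than in G2/M in all 4 wildtype samples. Ptprz1 stood at 1703 ± 102, 1521 ± 110 and 1666 ± 33.2 CPM in G1/G0, S and G2/M.

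The windows held different shares of cluster 4 in the 2 groups. S held 43.7% to 50.1% of wildtype and 54.3% to 57.3% of knockout nuclei, and G2/M held 35.0% to 40.8% and 29.2% to 31.5%, both without overlap. G1/G0 held 12.1% to 21.3% and 11.3% to 15.8%. The genotypes were therefore also compared within each window.

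Tnc, Ptprz1 and Slc1a3 were called lower in every window. In G1/G0 4 of 9 members tested were called, all lower, where 3.03% of genes were called and 2.38% were lower. In S it was 5 of 10, all lower, where 2.81% were called and 2.04% were lower, and in G2/M 3 of 10, all lower, where 2.93% were called and 1.91% were lower. The log2 fold change of Tnc was -1.19 ± 0.20 in G1/G0, -1.15 ± 0.13 in S and -1.52 ± 0.19 in G2/M. In S, the edgeR adjusted p of Slc1a3 was 0.0119, and 0.0504 without wildtype replicate 1. Ptprz1 gave -1.12 ± 0.14, -0.74 ± 0.08 and -0.75 ± 0.06 in that order, and Slc1a3 gave -0.64 ± 0.14, -0.46 ± 0.09 and -0.53 ± 0.07. The largest edgeR adjusted p of these 9 values was 0.0189, that of Slc1a3 in G1/G0, which became 0.0669 with the replicate number as a block and was lost without wildtype replicate 1 (0.110) or 4 (0.0628) and without knockout replicate 1 (0.0557) or 3 (0.0610).

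Fabp7 was called in S, at a log2 fold change of -0.58 ± 0.12 (edgeR adjusted p 0.0232). With the replicate block it was called in G1/G0 (-0.61, edgeR adjusted p 0.0407) and G2/M (-0.44, 0.0125) too. In S its call was lost without wildtype replicate 1 (0.0786) or 2 (0.0809) and without knockout replicate 2 (0.0526) or 3 (0.0688). Moving the boundaries up by 0.125π ended the call in S (-0.50, edgeR adjusted p 0.0538) and called Fabp7 in G1/G0 (-0.61, 0.0415) and G2/M (-0.60, 0.0249). In G1/G0 it was also called without the filter on low counts (edgeR adjusted p 0.0280), wildtype replicate 3 (0.0426) or knockout replicate 1 (0.0385), and in G2/M without knockout replicate 1 (0.0142).

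Ednrb gave values that depended on where the windows were set. In G1/G0 it stood at 203, 105, 169 and 198 CPM in wildtype and 56.3, 52.9, 61.0 and 52.0 CPM in knockout. In G2/M it stood at 131, 147, 153 and 142 CPM in wildtype and 52.8, 120, 132 and 88.7 CPM in knockout. The groups were apart in G1/G0, and in G2/M knockout replicate 3 reached the lowest wildtype sample. The log2 fold change was -1.63 ± 0.20 in G1/G0 (edgeR adjusted p 1.49e-04), -0.71 ± 0.14 in S (0.0156) and -0.53 ± 0.20 in G2/M (0.206). The call in S was lost without wildtype replicate 1 (0.0549) or 4 (0.0571). With all boundaries moved up by 0.125π it was lost too, at -0.59 (edgeR adjusted p 0.0606), while Ednrb in G2/M became -1.15 and was called (0.00979).

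The difference between the G2/M and G1/G0 effects on Ednrb, 1.06 ± 0.22 on the log2 scale, had an edgeR adjusted p of 0.0159. It was 1 of 10 members called in that test, alone, where 0.277% of genes were. The adjusted p was 0.205 without wildtype replicate 1, 0.0620 without wildtype replicate 4, 0.225 without knockout replicate 2 and 0.0870 without knockout replicate 3. With all window boundaries moved up by 0.125π the difference was 0.23 (edgeR adjusted p 0.903), on 58 to 236 G2/M nuclei per sample. In the test of S against G1/G0, where 0.277% of genes were called too, no member was called, and Ednrb came nearest at 0.88 ± 0.22 (edgeR adjusted p 0.0554). At an unadjusted p under 0.05 that test gave 3 members, Hopx, Ptprz1 and Ednrb. The share of all genes at this looser threshold is not given here, so the count cannot be judged. Ednrb was called in it without a filter on low counts (edgeR adjusted p 0.0118), without wildtype replicate 2 (0.0118) and without knockout replicate 1 (0.0108). Ptprz1 was called in it without the filter (0.35, edgeR adjusted p 0.0456) and without knockout replicate 1 (0.50, 0.00437), and without that sample also in the test of G2/M against G1/G0 (0.48, 0.0120). DESeq2 was not run on these differences.

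**Figure D4:**
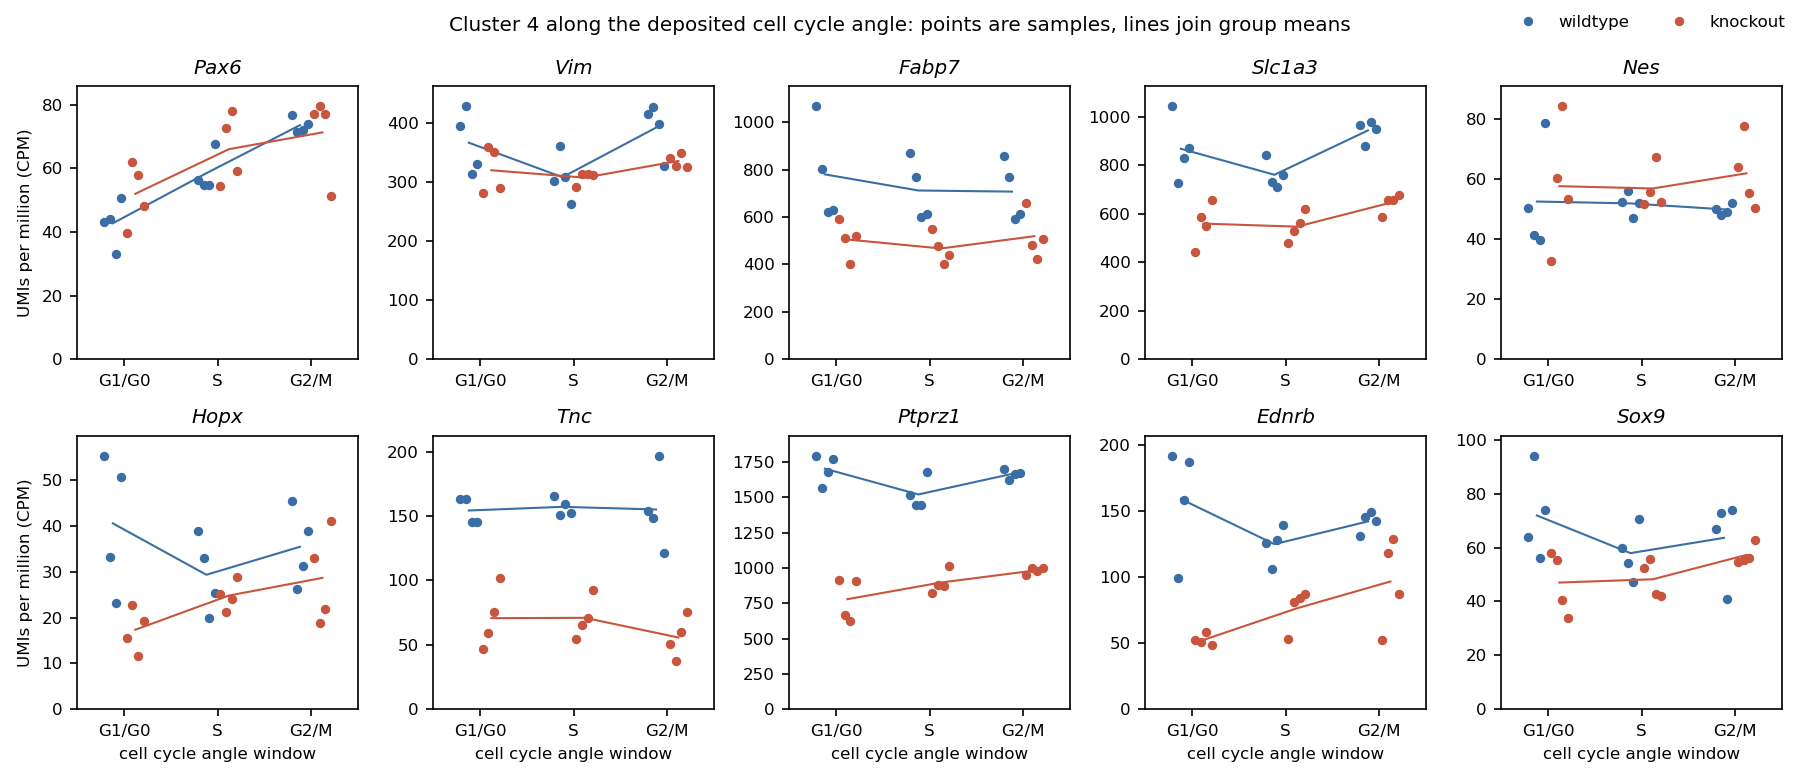
Level of each gene in cluster 4 (vertical axis, CPM, from 0) in the G1/G0, S and G2/M windows of the deposited cell cycle angle, with 1 point per sample, wildtype in blue and knockout in red, and lines joining group means. Pax6 climbs from G1/G0 to G2/M in wildtype, from 42.7 to 73.6 CPM, and the knockout samples of Tnc and Ptprz1 lie below the wildtype samples in each window.

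Outside cluster 4, Nes was the member called most often. Summed over all nuclei, 2 of 10 members were called, where 5.26% of genes were: Nes, which rose, and Tnc, which fell. Nes stood at 20.2, 22.8, 21.9 and 21.6 CPM in wildtype and at 30.6, 33.2, 32.4 and 31.2 CPM in knockout. The groups did not overlap, and the knockout mean was 47.1% higher. The log2 fold change was 0.56 ± 0.06 (edgeR adjusted p 6.46e-04).

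Tnc over all nuclei stood at 37.8, 24.6, 21.8 and 22.4 CPM in wildtype and 16.9, 13.5, 12.8 and 16.6 CPM in knockout, without overlap. Its log2 fold change was -0.84 ± 0.18 (edgeR adjusted p 0.0258), and the adjusted p became 0.0935 without knockout replicate 2 and 0.0962 without knockout replicate 3. In sums over all nuclei, fewer cells of a type and less RNA per cell cannot be told apart, and cluster 4 took 10.6% to 20.2% of the UMIs of a wildtype sample and 14.8% to 28.5% of a knockout sample.

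By cluster, the members called numbered 2 of 10 in cluster 1, 1 of 10 in cluster 2, 2 of 10 in cluster 3 and 1 of 8 in cluster 7, where 4.84%, 9.11%, 3.36% and 1.03% of genes were called. Nes was called higher in each of these 4 clusters. Its log2 fold change was 0.50 ± 0.12 in cluster 1 (edgeR adjusted p 0.0264), 0.62 ± 0.13 in cluster 2 (0.00909), 0.72 ± 0.15 in cluster 3 (0.0186) and 0.80 ± 0.17 in cluster 7 (0.0279). In clusters 5 and 6 it was 0.47 ± 0.13 (0.115) and 0.63 ± 0.19 (0.242). Cluster 2, where Nes went from 12, 15.4, 16.1 and 16.7 to 19.3, 22.8, 23.8 and 26.0 CPM without overlap, kept the call when any 1 sample was left out. In cluster 1 the edgeR adjusted p was 0.0540 to 0.0916 when wildtype replicate 1 or 4, or knockout replicate 2, 3 or 4, was left out. In cluster 3 it was 0.0506 to 0.0727 when wildtype replicate 4 or knockout replicate 2 or 3 was left out, and in cluster 7 0.0577 to 0.129 when any sample but wildtype replicate 3 and knockout replicate 1 was left out. The difference between the effect on Nes in cluster 4 and in all other nuclei was -0.41 ± 0.13, which did not pass (edgeR adjusted p 0.160).

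Ptprz1 moved in opposite directions in 2 clusters. In cluster 3 it stood at 736, 753, 765 and 621 CPM in wildtype and 919, 942, 1030 and 866 CPM in knockout, without overlap. That was 0.39 ± 0.07 on the log2 scale (edgeR adjusted p 0.0115, and 0.0520 without knockout replicate 3). In cluster 7 its log2 fold change was 0.27 ± 0.10 (edgeR adjusted p 0.297, 0.0402 with the replicate block and 0.0249 with the Xist covariate). Over all nuclei Ptprz1 was not called, at -0.08 ± 0.09 (0.667).

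The effect on Ptprz1 in cluster 4 was tested against its effect in all other nuclei together. The difference was -0.88 ± 0.09 on the log2 scale (edgeR adjusted p 0.00101). No other member of the 10 was called in that test, where 1.54% of genes were, and it passed in all 10 alternatives, with adjusted p-values up to 0.00814. In the other 9 genes the effect in cluster 4 was not shown to differ from that elsewhere, and Fabp7 came nearest at -0.31 ± 0.07 (0.0567). Tnc and Ednrb were near 0 outside cluster 4, and the SE of their difference was 0.29 and 0.33. For those genes the test cannot decide whether the effect is particular to cluster 4.

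The remaining calls outside cluster 4 were few. Tnc passed the test in cluster 1, at -1.09 ± 0.28 (edgeR adjusted p 0.0399), on only 6 to 24 UMIs per sample. It lay there at the background level: 0.625% of thinned wildtype nuclei held a Tnc UMI, against 0.568% in cluster 3, and the wildtype levels were 4.70 and 4.51 CPM. The value in cluster 1 is therefore not read as a change in expression. The edgeR adjusted p was 0.0656 to 0.135 when any 1 sample other than wildtype replicate 3 was left out, 0.0529 with the Xist covariate, and 0.0579 by DESeq2. Slc1a3 in cluster 3 did not overlap between groups, at 48.6, 57.2, 59.3 and 37.7 CPM in wildtype and 65.7, 72.2, 66.7 and 63.1 CPM in knockout. Its edgeR adjusted p was 0.0940, 0.0231 with the replicate block and 0.0202 with the Xist covariate. With that block Fabp7 was also called lower in cluster 1 (-0.31, 0.0133) and cluster 5 (-0.39, 0.0319). Neither cluster 5 nor cluster 6 had a called member of 9 and 8 tested, where 1.77% and 0.779% of genes were called by edgeR. At an unadjusted p under 0.05 by edgeR there were 4 and 2 members. The share of all genes at that threshold is not given here, so these 2 counts cannot be judged. DESeq2 called 0 members in both clusters.

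**Figure D5:**
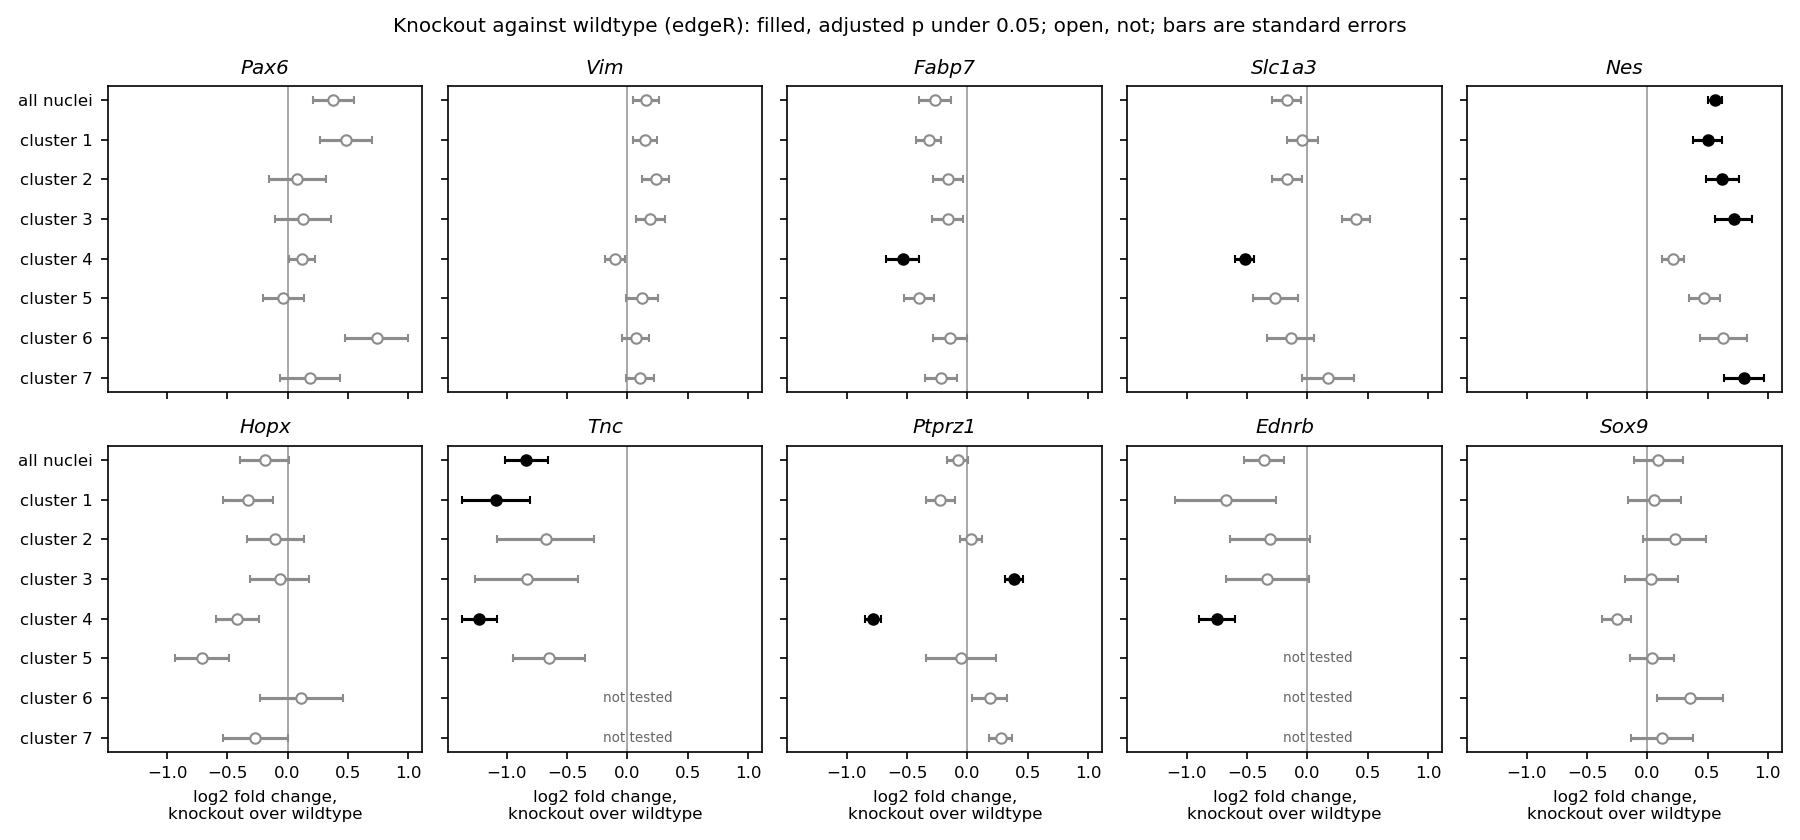
Log2 fold change of each gene (horizontal axis, knockout over wildtype, with SE) over all nuclei and in each cluster (vertical axis). Filled points have an edgeR adjusted p under 0.05: Nes lies above 0 in every row, Tnc below 0 in every row tested, and Ptprz1 is lower in cluster 4 and higher in cluster 3.

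Genes near the members were looked at by their positions in the deposited gene table, whose genome build it does not name. Nes had 39 tested genes within 1 Mb, of which 4 were called over all nuclei. They were Prcc (log2 fold change -1.0, edgeR adjusted p 1.81e-05), Isg20l2 (0.85, 0.00123), Gm3764 (1.07, 1.11e-04) and Bcan (0.87, 0.0427). Vim had 1 called gene of 10 and Ednrb 2 of 9, and the other 7 members had none. Among all genes tested over all nuclei, 5.26% were called. An effect of position was not tested.

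Some UMIs could belong to other genes. Pax6 overlaps Pax6os1, Hopx overlaps Hopxos and Tnc overlaps 8030451A03Rik, each on the opposite strand, and Slc1a3 overlaps Gm37310 on its own strand. The use of strand in counting is not given in the sources used here. Over at least 100 aligned bases, the one stretch at least 95% identical to another gene's transcript was 123 bases of Slc1a3 shared with Cse1l.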

How the data were processed

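The authors deposited whole-number UMI counts per gene and nucleus for each of the 8 samples, with tables of genes and nuclei, per the file headers. The submitters' processing notes name kallisto, bustools and mm10, without versions or roles. Per the file headers, the tables deposited for the nuclei hold a cluster number, a cell cycle angle and a doublet score, whose hybrid form is at or under 0.5 in every nucleus kept, so no doublet caller was run here. All nuclei carry 1 library date, so no batch was compared. Xist reached at least 10 UMIs in 5 samples, and its presence was the covariate of 1 alternative. The members and the marker lists were chosen with earlier results of these data known.

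For each sample, UMIs were added up over all nuclei, per cluster and per angle window. Each sum was fitted with edgeR 4.0.16 (R 4.3.3): TMM scaling, genes kept by filterByExpr, and the quasi-likelihood test of genotype with no other term, Benjamini-Hochberg adjustment over all genes tested, and a threshold of 0.05. Differences between compartments or windows were interaction terms with the sample as a block. Standard errors come from the F statistic. The scripts were tested on simulated data. Alternatives were DESeq2 1.42.0, its size factors, no filter on low counts, a replicate block, Xist, moved window boundaries, leaving out each sample, and, added after seeing the data, leaving out nuclei with marker UMIs. The genes named are the 10 members, the 8 genes most like their mean pattern, the called genes of the apical progenitor list, and markers beside a result. Replicate numbers 1 to 4 occur in both groups. Over all nuclei, deviations of same-numbered samples correlated at 0.398, 0.185, 0.192 and 0.179, each over 0.1, so the numbers were taken to pair the samples in the replicate block. Unlike numbers passed 0.1 too: wildtype 3 with knockout 4 (0.287), wildtype 2 with knockout 3 (0.167) and wildtype 1 with knockout 2 (0.113). The values thus do not single out same-numbered samples, and the main fits used no pairing. Within cluster 4 the values of same-numbered samples were 0.105, 0.164, -0.0909 and 0.0508. The positions in the gene table differ from GRCm38 and its build was not settled, so they served only to find neighbours. Copies were searched with blastn 2.17.0. No nucleus held under 1400 UMIs, the depth used for thinning.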

Additional observations from a re-analysis of the deposited data

Results flagged for a closer look

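In groups of 4 samples, a sample was set apart when its gap to the nearest other, as a share of the group's range, passed Dixon's 95% limit. Chance alone sets a sample apart in about 1 in 20 groups, and 4 of 40 were found here. Over all nuclei wildtype replicate 1 stood apart for Slc1a3, at 266 CPM against 178 to 193 CPM in the other wildtype samples, and for Hopx, at 19.3 CPM against 10.4 to 11.3 CPM. That sample had the largest share of cluster 4 nuclei among the wildtype samples, 20.2%. In cluster 4, Pax6 stood apart in wildtype replicate 4, at 67.3 CPM against 59.4 to 60.6 CPM, and Ptprz1 in knockout replicate 4, at 1014 CPM against 884 to 903 CPM.

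A difference of the genotype effect between groups of nuclei was called for 2 members. For Ptprz1 the effect in cluster 4 minus that in all other nuclei was -0.88 on the log2 scale (edgeR adjusted p 0.00101). For Ednrb the effect in the G2/M window minus that in the G1/G0 window of cluster 4 was 1.06 (edgeR adjusted p 0.0159). The Ednrb call was lost without wildtype replicate 1 (0.205) or 4 (0.0620) and without knockout replicate 2 (0.225) or 3 (0.0870). Moved window boundaries ended it as well (0.903), all edgeR adjusted p-values.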

How the results depend on the processing

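Of 180 recomputed counts of called members, 143 stayed within 1.5 times the reported count, and over 1719 refits of single members no called effect changed sign. Leaving out 1 sample at a time gave 1 to 2 called members over all nuclei, 0 to 2 in cluster 1, 0 to 2 in cluster 3, 0 to 1 in cluster 7, 2 to 5 in the S window, 0 to 2 in the difference of S from G1/G0 and 0 to 2 in that of G2/M from G1/G0. In cluster 4 it gave 4 to 5 and in the Ptprz1 comparison of compartments 1 in every fit. DESeq2 called 1 member in cluster 1, as did the Xist covariate there, and that covariate called 2 in cluster 7. With the replicate block 1 member was called in cluster 5 and 2 in cluster 7, and the block changed no call beyond those given with the results. Without a filter on low counts 2 members passed in the difference of S from G1/G0. Moved window boundaries gave 3 in S, 5 in G2/M and 0 in the difference of G2/M from G1/G0, and log2 ratios of G2/M to G1/G0 of 0.28 for Vim, 0.14 for Fabp7, 0.41 for Slc1a3 and 0.18 for Ptprz1. The moved G2/M window held 58 to 236 nuclei per sample, the unmoved one 285 to 676. Leaving out nuclei with glial marker UMIs, or with glial or interneuron marker UMIs, gave 3 in cluster 4 each. Except for these last 2 fits, the share of all genes called in a refit is not given here. The recomputed counts therefore describe the members only. On TMM-scaled totals over all clusters the wildtype levels in cluster 4 were 54.2 CPM for Pax6, 303 for Vim, 736 for Slc1a3, 44.6 for Nes, 136 for Tnc, 1396 for Ptprz1 and 119 for Ednrb. The cause of these shifts was not tested. Depth limits the low members: Tnc and Ednrb were too low to test in clusters 6 and 7, Ednrb in cluster 5 and Hopx in the G1/G0 window.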
